A study of Mus musculus with 8 samples.

Results

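Transforming growth factor β (TGF-β), activin and bone morphogenetic protein (BMP) ligands, with 1 BMP antagonist and 1 latency protein, were examined in the endometrium of Thra1PV/+ and WT mice. The set was chosen by gene symbol and holds 10 of the 52325 genes in the deposited count table: Tgfb1, Tgfb2, Tgfb3, Inhba, Inhbb, Bmp2, Bmp4, Bmp7, Grem1 and Ltbp1. All 10 passed the filter on low counts and were among the 18174 genes tested. In Thra1PV/+ mice 1 allele of Thra is the PV mutant, inherited through the germ line, and the other allele is WT. PV is a frameshift at the carboxyl end of thyroid hormone receptor α1 that gives a dominant negative receptor, and every cell of the animal carries it. Endometrium was taken by laser capture from frozen uterine sections of 4 Thra1PV/+ and 4 WT females in metestrus, and the labels name the tissue only as uterus. The ages of the mice behind these 8 libraries are not given in the sources used here. The captured tissue holds epithelium and stroma together, and counts per gene do not tell the PV transcript of Thra from the WT transcript.

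Ligands of this family are secreted dimers that bind pairs of type I and type II receptor kinases. TGF-β and activin receptors act through Smad2 and Smad3, BMP receptors act through Smad1, Smad5 and Smad9, and Smad4 is the partner of both branches. TGF-β leaves the cell in a latent complex that LTBP proteins tether to the matrix, and antagonists such as gremlin and follistatin hold BMPs or activins away from their receptors. In the uterus BMP2 is needed for decidualization of the stroma, TGF-β1 is the best known driver of fibrosis, and BMP4 and activin A from vaginal stroma direct the Müllerian epithelium to a squamous fate.

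The libraries held from 48791602 to 59818887 counts, a depth at which 9 of the 10 genes had at least 66 counts in every library. Libraries of 1 genotype differed in cell type markers. The summed level of 6 smooth muscle markers was 12640 CPM (counts scaled to library size after TMM normalization) in WT library 1 and 529 to 1094 CPM in the remaining WT libraries, and it was 125 to 638 CPM in Thra1PV/+. For 7 stromal fibroblast markers the sum was 5013 CPM in Thra1PV/+ library 1 and 397 to 1148 CPM in the other Thra1PV/+ libraries, and 4480, 4812, 1513 and 1663 CPM in WT libraries 1 to 4. All 7 stromal markers and all 6 smooth muscle markers had negative log2 fold changes, with medians of -0.89 and -4.31, and none of either list was called. The 7 simple epithelium markers summed to 6362 to 15831 CPM in Thra1PV/+ and 3642 to 20760 CPM in WT endometrium, with a median log2 fold change of -0.03. Of 8 squamous epithelium markers, 7 were called higher in Thra1PV/+, and their sum was 2826 to 4375 CPM against 1.26 to 64.4 CPM in WT endometrium, where Krt14 and Ivl were at 0 in 1 library each. No smooth muscle, stromal or simple epithelium marker was at 0 in any library.

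Among the 10 genes, none was called different between the genotypes. A call needed at least a 2-fold difference together with an adjusted p-value no higher than 0.1 by edgeR's quasi-likelihood test with Benjamini-Hochberg adjustment over all tested genes. By this rule 0.99% of all tested genes were called, 0.924% higher and 0.066% lower in Thra1PV/+, and DESeq2 with the same thresholds called 3.64% of genes and again none of the 10. A difference of 2-fold or more, whatever its p-value, was seen for 5 of the 10 genes and 12.8% of all tested genes. At an unadjusted p-value under 0.05, 2 of the 10 genes, Tgfb1 and Grem1, passed, both with higher values in Thra1PV/+, against 9.77% of all tested genes, 5.05% higher and 4.72% lower. The values of the genotypes overlapped for all 10 genes, whereas 6.04% of all tested genes had no overlap, 3.55% higher and 2.49% lower in Thra1PV/+. The log2 fold change, Thra1PV/+ minus WT, was positive for 6 of the 10 genes and negative for 4, with a median of 0.15 beside -0.05 for all tested genes. Each library was taken as a separate mouse, following the description of the samples by the study, which the labels themselves do not repeat. In captured tissue of mixed cells, fewer cells of a type and less RNA per cell cannot be told apart.

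**Figure D1:**
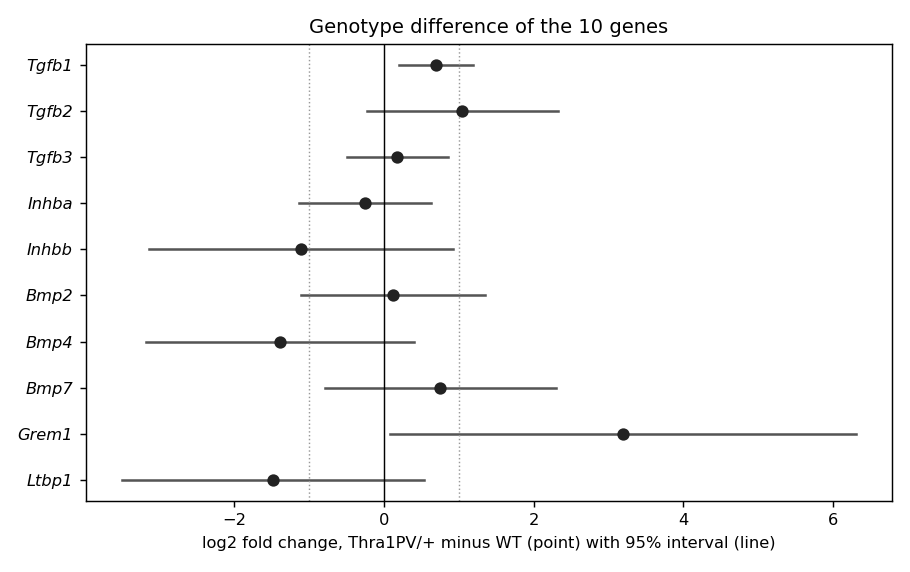
The plot of fold changes gives for each of the 10 genes the log2 fold change of Thra1PV/+ minus WT (point, horizontal axis in log2 units) with its 95% interval (line), and dotted lines at a change of -1 and 1. The intervals of Tgfb1 (0.20 to 1.20) and Grem1 (0.08 to 6.30) lie above 0, and the other 8 include 0.

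The start regions of Tgfb1 and Grem1 are shown because these are the genes that passed the unadjusted threshold, a choice made after their values were seen. Each is a RefSeq promoter window of 300 bases (250 before the start and 50 after it) in build GRCm38.p6, read on the strand of the gene, 5′ to 3′. Tgfb1 is at chr7:25686752-25687051 on the plus strand and Grem1 at chr2:113758599-113758898 on the minus strand. Capitals mark TGACCT, the reverse complement of AGGTCA, the core hexamer that thyroid hormone receptors and other nuclear receptors bind.
Tgfb1: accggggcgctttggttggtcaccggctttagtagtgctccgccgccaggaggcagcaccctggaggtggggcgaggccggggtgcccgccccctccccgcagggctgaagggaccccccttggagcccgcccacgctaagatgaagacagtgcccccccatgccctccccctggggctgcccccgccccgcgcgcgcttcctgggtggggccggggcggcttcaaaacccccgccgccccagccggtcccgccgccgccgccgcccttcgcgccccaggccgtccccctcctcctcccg
Grem1: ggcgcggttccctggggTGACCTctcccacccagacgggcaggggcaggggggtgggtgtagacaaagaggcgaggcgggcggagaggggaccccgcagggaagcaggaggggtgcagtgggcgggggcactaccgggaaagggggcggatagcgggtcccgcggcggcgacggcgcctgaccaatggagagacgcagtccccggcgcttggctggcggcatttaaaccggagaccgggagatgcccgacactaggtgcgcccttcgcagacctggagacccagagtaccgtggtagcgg
AGGTCA was searched on both strands with no mismatch. It occurred in Grem1 once, from position 18 counted from the 5′ end of the window, and not in the Tgfb1 window. Windows were found for 7 of the 10 genes, 8 windows in all since Ltbp1 has a pair, and 1 of the 8 held the hexamer. Of all 32851 promoter windows of the same length, 16.3% held it.

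Tgfb1 encodes TGF-β1, the ligand most tied to fibrosis and to control of immune cells, on chromosome 7 from 25687002 to 25705077 (GRCm38, plus strand). It was measured at 36.5, 44.5, 43.1 and 32.7 CPM in Thra1PV/+ libraries 1 to 4 and at 25.6, 18.2, 19.4 and 33.6 CPM in WT libraries 1 to 4. The genotypes overlapped through 1 pair of libraries, with Thra1PV/+ library 4 just under WT library 4, and on the TPM scale the same libraries were at 23.3 and 22.6 TPM and the genotypes did not overlap. The means were 39.2 ± 5.53 CPM (SD, n = 4) in Thra1PV/+ and 24.2 ± 7.08 CPM (SD, n = 4) in WT endometrium, which differ 1.62-fold. On the log2 scale this was 0.70 (standard error 0.22), with a p-value of 0.0123 and an adjusted p-value of 0.341 by edgeR's quasi-likelihood test with Benjamini-Hochberg adjustment. Of the 10 genes it had the smallest p-value and the smallest standard error. Leaving out 1 library at a time gave log2 fold changes of 0.61 to 0.90, the highest without WT library 4. Fits with the mean log2 level of a marker list as a further term were chosen after the data were seen. With the stromal markers the log2 fold change was 0.58, with a p-value of 0.0478 and an adjusted p-value of 0.308 by the same test. With the smooth muscle markers it was 0.69, with a p-value of 0.0831 and an adjusted p-value of 0.670.

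The 3 tested genes whose library-to-library values, after the genotype means were removed, were most like those of Tgfb1 were Ankrd50, Ccr1 and Il1r2. Their Pearson correlations with Tgfb1 over the 8 libraries, which share the depth and the makeup of each capture, were 0.987, 0.985 and 0.974. Ccr1 is a chemokine receptor and Il1r2 a decoy receptor for interleukin 1, both found on myeloid cells. Among 12131 genes examined, 53 had a correlation over 0.9. The 5 neutrophil markers, summed, were at 74.1 to 721 CPM in Thra1PV/+ and 7.10 to 127 CPM in WT endometrium, with WT library 4 the highest of the WT libraries for these markers and for Tgfb1. Of the 5 markers, 4 had a p-value under 0.05 with higher values in Thra1PV/+, against 9.77% of all tested genes in either direction. S100a8 was above 0 in every library, and none of the 5 was called. Highest of the 5 in Thra1PV/+ were the means of S100a9 (170 CPM) and S100a8 (76.8 CPM). Which cells of the capture held these transcripts was not tested. The part of neutrophils in the Tgfb1 values was not tested.

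Tgfb2, the isoform known for its part in development and in epithelial to mesenchymal transition, lies on chromosome 1 from 186622792 to 186705989 (minus strand). Its level was 32.9, 27.5, 18.7 and 15.3 CPM in the Thra1PV/+ libraries and 24.7, 11.3, 3.92 and 5.80 CPM in the WT libraries. WT library 1 lay within the range of Thra1PV/+, and the other 3 WT libraries lay below all 4 Thra1PV/+ libraries. Means were 23.6 ± 8.04 and 11.4 ± 9.36 CPM (SD, n = 4 each). The log2 fold change of 1.05 (standard error 0.56, interval -0.23 to 2.32) was past a fold of 2, but its adjusted p-value was 0.606 by edgeR's quasi-likelihood test with Benjamini-Hochberg adjustment. Without WT library 1 the log2 fold change was 1.80, with an adjusted p-value of 0.199 by the same test. With the mean log2 level of the stromal markers as a further term, a choice made after the data were seen, it was 1.81, with an adjusted p-value of 0.228.

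Tgfb3, the isoform known for palate fusion, is on chromosome 12 from 86056745 to 86079041 (minus strand). Values of 55.5, 23.6, 31.5 and 39.2 CPM in Thra1PV/+ and 44.6, 30.8, 22.6 and 34.1 CPM in WT libraries spanned nearly the same range. In each genotype library 1 was the highest. Between genotypes the log2 fold change was 0.18 (standard error 0.29), and its interval of -0.49 to 0.86 leaves out a change of 2-fold in either direction. With the same stromal term it was 0.58 with an adjusted p-value of 0.208 by edgeR's quasi-likelihood test with Benjamini-Hochberg adjustment.

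Levels of different genes were compared only per transcript length, as the deposited TPM values. Of the summed TPM of the 3 TGF-β ligands, Tgfb1 made up 57.9% ± 8.21 (SD, n = 4) in Thra1PV/+ and 53.7% ± 7.55 (SD, n = 4) in WT endometrium. Tgfb3 made up 28.3% ± 8.46 and 37.1% ± 3.19, and Tgfb2 13.8% ± 3.33 and 9.23% ± 4.85, in the same order. In every library Tgfb1 had the largest share and Tgfb2 the smallest. When CPM per kilobase of the longest transcript replaced TPM, the WT shares of Tgfb1 and Tgfb3 became 44.5% and 45.7%. The Thra1PV/+ means became 49.9% and 35.4%, but in Thra1PV/+ library 1 the shares were 38.3% and 44.3%. The order of these isoforms in WT endometrium and in that library therefore depends on the length scale.

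**Figure D2:**
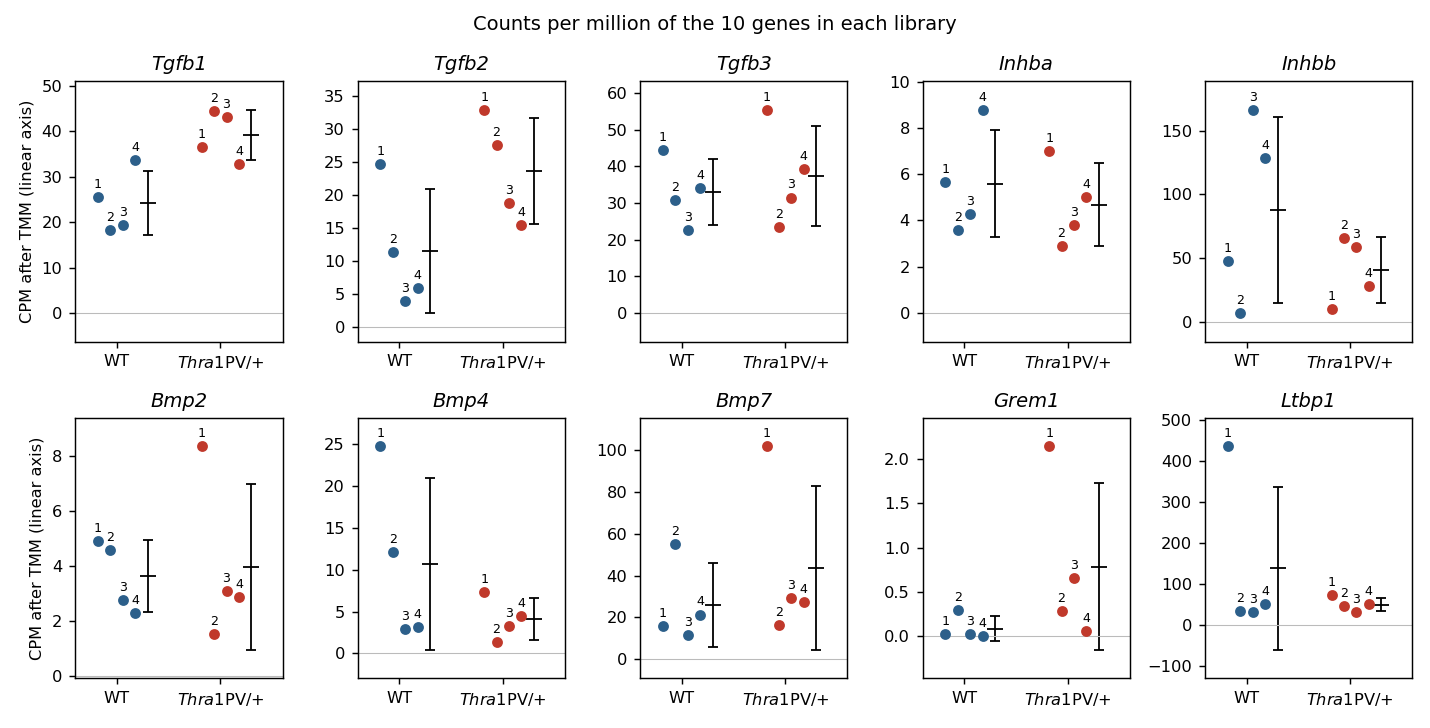
CPM after TMM scaling (linear vertical axis) are plotted for each of the 10 genes in the 4 WT (blue) and 4 Thra1PV/+ (red) libraries, with the library number above each point and the mean with SD as a black bar beside them. For Ltbp1 and Bmp4 WT library 1 stands above the rest (436 and 24.7 CPM), and for Bmp7, Bmp2 and Grem1 Thra1PV/+ library 1 does (102, 8.37 and 2.15 CPM).

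Inhba and Inhbb encode the activin β subunits, which pair with each other to form activins or with the inhibin α subunit to form inhibins. Inhba, on chromosome 13 from 16011851 to 16031621 (plus strand), was at 7.01, 2.90, 3.82 and 5.01 CPM in Thra1PV/+ and 5.65, 3.58, 4.30 and 8.79 CPM in WT libraries. The ranges of the genotypes lay almost on top of each other. Its log2 fold change was -0.25 (standard error 0.39, interval -1.13 to 0.63), with an adjusted p-value of 0.891 by edgeR's quasi-likelihood test with Benjamini-Hochberg adjustment.

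Inhbb, on chromosome 1 from 119415465 to 119422248 (minus strand), varied far more between libraries of 1 genotype. It was at 10.2, 65.9, 58.2 and 28.0 CPM in Thra1PV/+ libraries and at 48.0, 6.64, 167 and 128 CPM in WT libraries. The lowest and the highest library were both WT. The means of 40.6 ± 26.0 CPM in Thra1PV/+ and 87.4 ± 73.1 CPM in WT endometrium (SD, n = 4 each) gave a log2 fold change of -1.11 (standard error 0.89, interval -3.14 to 0.92) and an adjusted p-value of 0.754 by edgeR's quasi-likelihood test with Benjamini-Hochberg adjustment. The libraries lowest in Inhbb, WT library 2 and Thra1PV/+ library 1, were also the lowest of their genotype in summed simple epithelium markers, at 3642 and 6362 CPM. The WT libraries highest in Inhbb, 3 and 4, were the highest of all in those markers, at 20760 and 17153 CPM. The part of epithelial content in the Inhbb difference was not tested. Without WT library 3 the log2 fold change was -0.56. With the stromal term it was -2.33, with an adjusted p-value of 0.139 by the same test.

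Bmp2, the BMP of decidualization, is on chromosome 2 from 133552159 to 133562885 (plus strand). Thra1PV/+ libraries had 8.37, 1.54, 3.09 and 2.87 CPM and WT libraries 4.92, 4.60, 2.79 and 2.28 CPM. Thra1PV/+ held both the highest and the lowest library. On the log2 scale the difference was 0.12 (standard error 0.53, interval -1.10 to 1.34), and its sign changed with the processing. With the stromal term it was 0.73, with an adjusted p-value of 0.261 by edgeR's quasi-likelihood test with Benjamini-Hochberg adjustment.

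Bmp4, a BMP of the mesenchyme in many developing organs, is on chromosome 14 from 46383520 to 46390669 (minus strand). It was at 7.31, 1.34, 3.23 and 4.52 CPM in Thra1PV/+ and at 24.7, 12.1, 2.88 and 3.14 CPM in WT libraries. WT libraries 1 and 2 were above all others and WT libraries 3 and 4 fell inside the range of Thra1PV/+. The log2 fold change of -1.38 (standard error 0.78, interval -3.17 to 0.41) had an adjusted p-value of 0.630 by edgeR's quasi-likelihood test with Benjamini-Hochberg adjustment, and it was -0.51 without WT library 1. WT libraries 1 and 2 and Thra1PV/+ library 1, the highest of its genotype in Bmp4, were also the libraries with the highest summed stromal marker levels, from 4480 to 5013 CPM. With the stromal term the log2 fold change was 0.18 with an adjusted p-value of 0.917 by the same test.

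Bmp7, which is needed in the uterus for implantation and in the kidney for its development, is on chromosome 2 from 172868012 to 172940321 (minus strand). Its levels were 102, 16.1, 29.4 and 27.3 CPM in Thra1PV/+ and 15.8, 55.1, 11.4 and 21.4 CPM in WT libraries. Thra1PV/+ library 1 and WT library 2 were the highest of their genotypes, and these libraries also had the highest summed stromal marker level of each genotype (5013 and 4812 CPM). WT library 1, at 4480 CPM of these markers, was at 15.8 CPM of Bmp7, below WT library 4 with 1663 CPM of the markers. Col1a1 and Col3a1 weigh most in these sums, at 1605 and 2225 CPM in Thra1PV/+ library 1 and 1232 and 1520 CPM in WT library 2. Dcn, Hoxa11 and Lum were higher in WT library 1 than in WT library 2, and lower in Thra1PV/+ library 1 than in both. Pdgfra and Vim were lower in WT library 1 than in WT library 2. The Bmp7 difference of 0.75 on the log2 scale (standard error 0.67, interval -0.79 to 2.30) came with an adjusted p-value of 0.784 by edgeR's quasi-likelihood test with Benjamini-Hochberg adjustment. It was -0.04 without Thra1PV/+ library 1 and 1.45 without WT library 2. With the stromal term it was 1.57, with an adjusted p-value of 0.119 by the same test.

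Grem1 encodes gremlin, an antagonist that binds BMP2, BMP4 and BMP7, on chromosome 2 from 113746164 to 113758646 (minus strand). It was close to the limit of detection. The counts were 117, 14, 32 and 3 in Thra1PV/+ libraries 1 to 4 and 1, 16, 1 and 0 in WT libraries 1 to 4, or 0.05 to 2.15 CPM against 0 to 0.29 CPM. A count of 3 was taken as the floor of a library, and 3 WT libraries and Thra1PV/+ library 4 were at or under it. Its difference was 3.19 on the log2 scale (standard error 1.36) with an interval of 0.08 to 6.30, a p-value of 0.0455 and an adjusted p-value of 0.499 by edgeR's quasi-likelihood test with Benjamini-Hochberg adjustment. Leaving out 1 library at a time moved it between 2.0, without Thra1PV/+ library 1, and 5.67, without WT library 2.

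Ltbp1, which encodes a protein that carries latent TGF-β and fixes it to the matrix, is on chromosome 17 from 75005568 to 75392512 (plus strand). It was at 71.6, 45.7, 30.7 and 49.5 CPM in Thra1PV/+ and at 436, 33.0, 30.7 and 51.4 CPM in WT libraries. WT library 1 stood far above all others, and the other 3 WT libraries lay between 30.7 and 51.4 CPM, within the range of Thra1PV/+. Over all 8 libraries the difference was -1.48 on the log2 scale (standard error 0.88), with an adjusted p-value of 0.647 by edgeR's quasi-likelihood test with Benjamini-Hochberg adjustment. It became 0.40 without WT library 1, with an adjusted p-value of 0.840 by the same test. WT library 1 was also the library with 12640 CPM of summed smooth muscle markers, and Acta2, the highest of these, was at 4154 CPM there and 126 to 297 CPM in the other WT libraries.

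**Figure D3:**
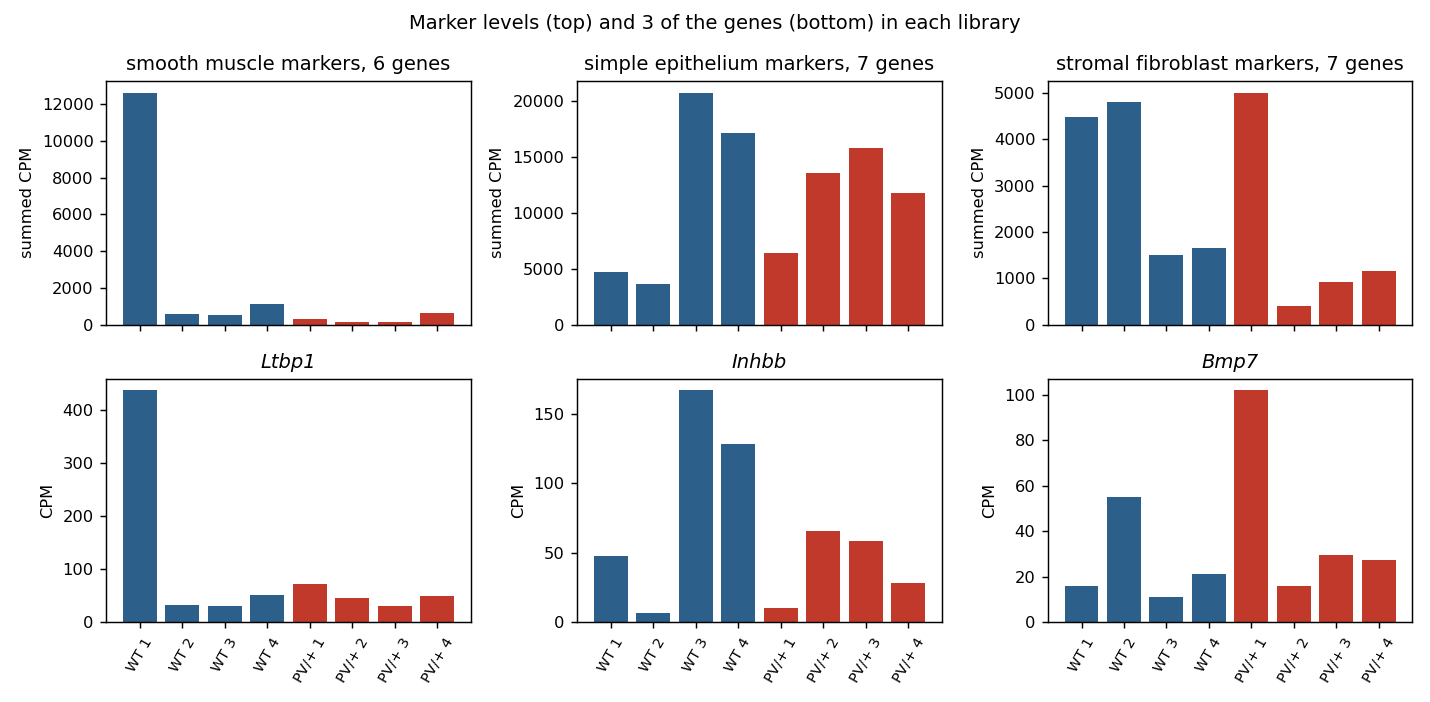
Bars give the summed CPM of 3 marker lists (top) and the CPM of Ltbp1, Inhbb and Bmp7 (bottom) in each WT (blue) and Thra1PV/+ (red, written PV/+) library, all axes from 0. WT library 1 has the tallest bar both for smooth muscle markers (12640 CPM) and for Ltbp1 (436 CPM), and Thra1PV/+ library 1 both for stromal markers (5013 CPM) and for Bmp7 (102 CPM). WT library 1 is high in stromal markers (4480 CPM) and not in Bmp7 (15.8 CPM). Col1a1 and Col3a1 make up most of the stromal bar of Thra1PV/+ library 1 (1605 and 2225 CPM).

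By mean TPM, the order of the 10 genes in Thra1PV/+ endometrium was Tgfb1 (26.8), Ltbp1 (17.2), Bmp7 (14.9), Inhbb (14.8), Tgfb3 (13.3), Tgfb2 (6.52), Bmp4 (2.87), Bmp2 (1.58), Inhba (0.885) and Grem1 (0.218). In WT endometrium the order was Ltbp1 (45.4), Inhbb (31.1), Tgfb1 (17.0), Tgfb3 (11.8), Bmp7 (8.83), Bmp4 (7.85), Tgfb2 (3.09), Bmp2 (1.63), Inhba (1.14) and Grem1 (0.0231). In Thra1PV/+ only Tgfb1 and Ltbp1, and Inhba and Grem1, were neighbours whose libraries did not overlap. In WT endometrium only Inhba and Grem1 were such neighbours. By mean CPM per kilobase of the longest transcript, Ltbp1 moved from place 2 to place 5 in Thra1PV/+, and Bmp7 (11.9) stood next to Tgfb1 (15.2). In WT endometrium Tgfb3 (9.76) then stood just above Tgfb1 (9.41). The order near the top, and with it the gap between Tgfb1 and its neighbour in Thra1PV/+, therefore depends on the length scale. The WT values of Ltbp1 and Inhbb ran from 12.7 to 135 TPM and from 2.45 to 56.5 TPM, so their place at the top of the WT order is not beyond the spread of the libraries. Among 33 ligand genes of the family, counting those outside the set, Inhbb (mean over both genotypes 23.0 TPM) and Tgfb1 (21.9 TPM) were followed by Gdf10 (18.3 TPM), and Bmp7 was the highest of the BMP genes at 11.9 TPM. Over the 8 libraries Gdf10 ran from 1.24 to 50.4 TPM and Bmp7 from 4.22 to 35.3 TPM, so these places too are not beyond the spread of the libraries.

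**Figure D4:**
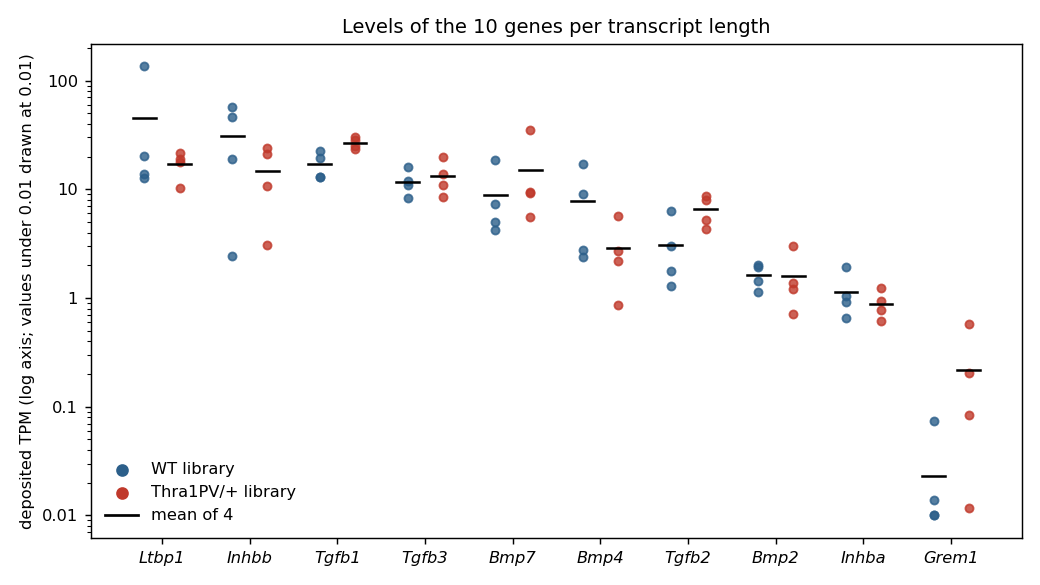
Deposited TPM values of the 10 genes are plotted on a log axis for each WT (blue) and Thra1PV/+ (red) library, with a black line at the mean of 4, and values under 0.01 are drawn at 0.01. The 4 Thra1PV/+ values of Tgfb1 (23.3 to 30.2 TPM) lie close together above the WT values, while Inhbb and Bmp7 spread widely in both genotypes.

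The other ligands of the family comprised 25 genes, of which 15 passed the filter and none was called by edgeR, while DESeq2 called Gdf6. At an unadjusted p-value under 0.05, 1 was higher and 2 were lower in Thra1PV/+, with a median log2 fold change of -0.09. Over all tested genes 9.77% passed that threshold and 6.04% had no overlap, and the counts of this and the following lists are to be read beside these shares. Bmp5, a close relative of Bmp7, was at 12.4 ± 7.28 CPM in Thra1PV/+ and 5.92 ± 1.91 CPM in WT endometrium (SD, n = 4 each), a log2 fold change of 1.07 with an adjusted p-value of 0.451, and it was 0.62 without Thra1PV/+ library 1. Gdf6, a BMP of bone and eye development, was at 0 to 0.204 CPM in Thra1PV/+ libraries and at 0.289 to 1.14 CPM in WT libraries, a log2 fold change of -2.65 with an adjusted p-value of 0.362 by edgeR and 0.0630 by DESeq2, and was the 1 ligand of this list with no overlap. Its counts were 3, 0, 10 and 5 in Thra1PV/+ libraries 1 to 4, so libraries 1 and 2 were at or under the floor of 3 counts. Gdf5, a BMP of joint formation, had a log2 fold change of -3.03 that rested on WT library 1 (7.48 CPM, with 0.356 to 0.415 CPM in the remaining WT libraries). Without that library it was -0.51. Gdf9, an oocyte factor, was at 2.33 CPM or less in every library.

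Of 14 receptor genes, none was called by edgeR, DESeq2 called Acvr1c, and 1 had an unadjusted p-value under 0.05. Tgfbr2, the type II receptor for TGF-β, was at 166 ± 71.4 CPM in Thra1PV/+ and 160 ± 14.2 CPM in WT endometrium, and Bmpr1a, a type I receptor for BMPs, at 113 ± 7.30 and 125 ± 23.3 CPM (SD, n = 4 each). Acvr1c, a type I receptor for Nodal and activin B, was at 0.142 to 0.331 CPM in Thra1PV/+ and 0.363 to 1.99 CPM in WT libraries, a log2 fold change of -2.08 with an adjusted p-value of 0.315 by edgeR and 0.0486 by DESeq2. Acvr2b, an activin type II receptor, was at 2.68 to 3.54 CPM in Thra1PV/+ and 2.08 to 2.33 CPM in WT libraries, a log2 fold change of 0.54 with an adjusted p-value of 0.518. These were the 2 of 14 receptors with no overlap, beside 6.04% of all tested genes. Tgfbr3, the coreceptor betaglycan, and Amhr2, the receptor for anti-Müllerian hormone, had log2 fold changes of -1.39 and -2.03 with adjusted p-values of 0.558 and 0.584. Both were smaller in size without WT library 1, at -0.80 and -0.53.

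Extracellular antagonists had the lowest median of the pathway lists, -0.98, over the 10 of 13 genes tested, with none called and 2 with an unadjusted p-value under 0.05, both lower in Thra1PV/+. Chrdl2, a chordin-like BMP antagonist, was at 0.569, 0.203, 0.429 and 1.21 CPM in Thra1PV/+ and 38.2, 3.23, 3.08 and 2.09 CPM in WT libraries. All 4 WT libraries were above all 4 Thra1PV/+ libraries, with WT library 1 far above the rest. It had a log2 fold change of -4.26, with a standard error of 1.15 and an adjusted p-value of 0.241, and of -2.17 without WT library 1. Chrdl1, the related gene, had -3.93 with an adjusted p-value of 0.444, and -1.05 without WT library 1. Fst, which encodes the activin antagonist follistatin, was at 2.55, 4.81, 8.48 and 4.15 CPM in Thra1PV/+ and 38.2, 34.4, 1.11 and 8.14 CPM in WT libraries. WT libraries 1 and 2 were high and WT library 3 was the lowest of all 8, and the log2 fold change of -2.04 had an adjusted p-value of 0.528. Chrd, encoding chordin, had a log2 fold change of -1.45 that became -0.11 without WT library 1. With the mean log2 level of the smooth muscle markers as a further term, chosen after the data were seen, the log2 fold changes were -0.95 for Chrdl2, 1.02 for Chrdl1, -1.41 for Fst and 0.74 for Chrd, and none was called. Those 6 markers all had negative log2 fold changes, so the term and genotype are only partly separated in this fit.

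All 12 genes of TGF-β latency and activation were tested, none was called, and 1 was higher and 2 were lower at an unadjusted p-value under 0.05. Ltbp2, a relative of Ltbp1 that binds elastic fibres and not latent TGF-β, was at 67.7, 173, 119 and 71.2 CPM in Thra1PV/+ and 17.3, 2.31, 24.7 and 63.2 CPM in WT libraries. The genotypes did not overlap, with the nearest libraries at 67.7 and 63.2 CPM. It had a log2 fold change of 2.01, with a standard error of 0.81 and an adjusted p-value of 0.472, against -1.48 for Ltbp1 and -1.44 for Ltbp4. Lrrc32, which encodes the anchor of latent TGF-β on regulatory T cells and endothelium, had a log2 fold change of -1.39 with an adjusted p-value of 0.436. Without WT library 1, Ltbp4 was at -0.82 and Lrrc32 at -0.79. Itgb8, a subunit of an integrin that frees TGF-β, had -0.40 with an adjusted p-value of 0.728.

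The 8 Smad genes had log2 fold changes from -0.58 to 0.17, and none had an unadjusted p-value under 0.05. Smad4, the common partner, was at 71.9 ± 10.5 CPM in Thra1PV/+ and 64.0 ± 7.27 CPM in WT endometrium (SD, n = 4 each). Smad1 and Smad5 of the BMP branch had log2 fold changes of 0.14 and 0.15, and inhibitory Smad7 had 0.16.

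Genes that respond to TGF-β and activin comprised 7 genes, all tested, with none called by edgeR and 1, Ccn2, lower at an unadjusted p-value under 0.05. Ccn2, which encodes connective tissue growth factor and is a standard target of TGF-β and of YAP, was at 13.6, 23.7, 34.7 and 46.4 CPM in Thra1PV/+ and 152, 44.7, 158 and 98.2 CPM in WT libraries. The genotypes overlapped through Thra1PV/+ library 4 and WT library 2 alone. Its log2 fold change was -1.94 (standard error 0.48) with an adjusted p-value of 0.193 by edgeR's quasi-likelihood test with Benjamini-Hochberg adjustment, while DESeq2 gave an adjusted p-value of 0.00842. Tgfbi, a matrix protein induced by TGF-β, lay on the other side, at 237 ± 34.7 CPM against 114 ± 71.9 CPM (SD, n = 4 each), a log2 fold change of 1.06 with an adjusted p-value of 0.533. Ldlrad4, an inhibitor of Smad activation, had a log2 fold change of -0.35 with an adjusted p-value of 0.723.

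Of the 10 BMP responsive genes, 1 was called. Msx2, a homeobox gene induced by BMPs, rose in Thra1PV/+ endometrium, where it was at 39.3, 45.0, 41.4 and 51.7 CPM against 15.7, 28.9, 17.6 and 21.8 CPM in WT libraries. All 4 Thra1PV/+ libraries were above all 4 WT libraries. The log2 fold change was 1.08 (standard error 0.21) with an adjusted p-value of 0.0811 by edgeR's quasi-likelihood test with Benjamini-Hochberg adjustment. The call was kept in 1 of the 8 fits that left out a library (without WT library 2, adjusted p-value 0.0419) and was lost in the other 7, whose adjusted p-values were 0.103 to 0.220. Id1, a direct target of BMP Smads, was at 98.6, 85.3, 59.4 and 60.3 CPM in Thra1PV/+ and 31.0, 70.9, 21.5 and 46.1 CPM in WT libraries, overlapping only through WT library 2, with a log2 fold change of 0.84 and an adjusted p-value of 0.507. Id2 and Bambi, which are also induced by BMPs, had log2 fold changes of -0.61 and -1.01 with adjusted p-values of 0.680 and 0.639. WT library 2 was the highest in both, at 160 and 48.8 CPM, and without it the values were -0.082 and -0.17. The median of the list was -0.12.

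**Figure D5:**
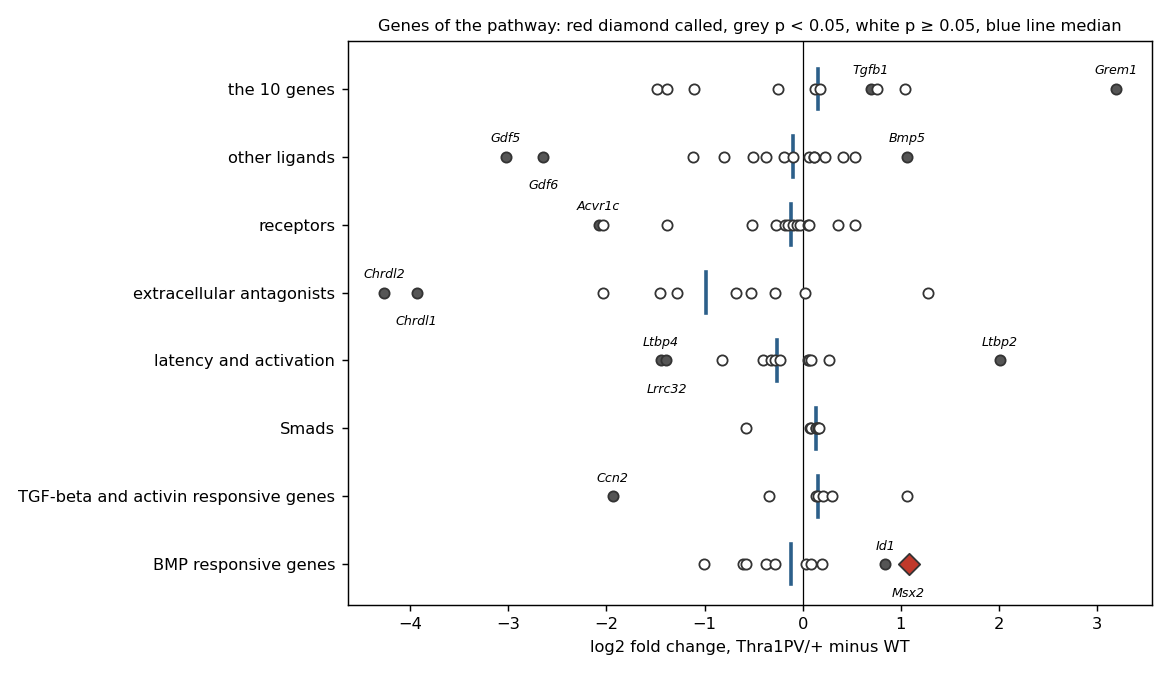
Each point is the log2 fold change (horizontal axis, Thra1PV/+ minus WT) of 1 tested gene in 8 groups of the pathway (rows), with a red diamond for a called gene, grey for an unadjusted p-value under 0.05, white for the rest and a blue line at the median of each group. Msx2 at 1.08 is the only diamond, and the antagonists have the lowest median at -0.98.

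Other cell types that the capture could hold were checked by their markers. None of 5 endothelial, 5 macrophage, 5 T cell, 4 B and plasma cell, 2 uterine gland and 4 erythroid genes tested was called. Median log2 fold changes were -0.09 for endothelium, 0.24 for macrophages and -0.21 for glands. They were 1.39 for T cells, with 3 of 5 at an unadjusted p-value under 0.05, 2.82 for B and plasma cells, with 3 of 4, and -1.75 for erythroid genes, with 1 of 4. Over all tested genes 9.77% passed that threshold. Neutrophil markers had a median of 2.08. The part of these cells in the values of the 10 genes was not tested.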

How the data were processed

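RNA from laser-captured endometrium of 4 Thra1PV/+ and 4 WT mice was sequenced from stranded mRNA libraries with paired ends. The authors trimmed reads with Trimmomatic and deposited estimated counts per gene from Salmon for mouse genome mm10, without normalization. The authors also deposited TPM values, whose sorted values differed by at most 0.291 between libraries, the form that quantile normalization gives. Versions of these tools are not given in the sources used here, the authors' differential expression values were not used, and 1 further column of the TPM table was left out, which is headed as a WT sample, matches no sample of the series and holds values below 0 and division errors. Strand settings of the counting are not given in the sources used here.

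Counts were rounded to whole numbers (71.0% to 78.5% of values were whole already), filtered with filterByExpr (minimum count 10, minimum total 15), scaled by TMM and tested with edgeR 4.0.16 (limma 3.58.1, R 4.3.3) by the quasi-likelihood test with genotype as the only term and Benjamini-Hochberg adjustment over 18174 genes. CPM are after TMM, log2 CPM used a prior count of 2, and 3 counts were the floor of a library. The procedure was checked on simulated counts. Library totals were 48791602 to 59818887, and floors cover counting error only. Symbols matched 52220 of 52325 identifiers. Positions are from GENCODE release M21 (GRCm38), in which 16271 tested genes have the same identifier version, Ltbp1 not among them.

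The 10 genes and the lists of other ligands, receptors, antagonists, latency genes, Smads, responsive genes and cell type markers were chosen with earlier results of these data known, and 1 gene of the responsive lists is not reported here. The text names the 10 genes, every called gene and up to 4 genes of smallest p-value of each pathway list, single markers where a result turns on them, and the 3 genes most correlated with the member of smallest p-value. Tgfbr2, Bmpr1a, Gdf10, S100a8, S100a9, Krt14 and Ivl were named after their values were seen. Alternatives were DESeq2 1.42.0, DESeq2 size factors, upper quartile or library size, other count filters, the replicate block, limma voom, limma on log2 TPM with pseudocounts of 1 and 0.1, other thresholds, CPM per transcript length, each library left out in turn and, added after the data were seen, stromal or smooth muscle marker level as a term.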

Additional observations from a re-analysis of the deposited data

Results flagged for a closer look

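Of 74 groups of 4 libraries examined for the 10 genes and the named pathway genes, 3 held a library whose gap to the nearest of the other 3 passed Dixon's 95% critical value as a share of the range of the group. Chance passes it in about 1 in 20 groups, or 3.7 of 74. WT library 1 was at 5.26 log2 CPM for Chrdl2, with the other WT libraries at 1.09 to 1.71. The same library was at 2.91 log2 CPM for Gdf5, with the others at -1.34 to -1.14. Thra1PV/+ library 1 was at 4.08 log2 CPM for Ldlrad4, with the others at 3.34 to 3.41. None of the 10 ligand and modulator genes had such a library on this scale.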

How the results depend on the processing

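None of the 10 genes was called under any alternative with an adjusted p-value, DESeq2 included, where Ltbp1 had no adjusted p-value, and 2 passed an unadjusted p-value under 0.05. The direction held for Tgfb1, Tgfb2, Inhbb and Grem1 under every alternative, except that Grem1 was not tested at 10 counts in every library. It turned in leave-one-out fits for Tgfb3 (log2 fold changes of -0.028 to 0.40), Inhba (-0.47 to 0.057), Bmp2 (-0.50 to 0.39), Bmp7 (-0.039 to 1.45), Ltbp1 (-1.81 to 0.40) and Smad5 (-0.024 to 0.27), and for Smad5 it was -0.0090 by voom. Bmp2 was also -0.11 by voom and -0.085 and -0.18 on log2 TPM with pseudocounts of 1 and 0.1. With the smooth muscle marker level as a further term, chosen after the data were seen, Inhba was 0.20, Bmp4 0.30, Ltbp1 1.71, Amhr2 0.35, Chrd 0.74, Chrdl1 1.02, Gdf5 0.69, Gdf9 0.13 and Lrrc32 0.039. With the stromal marker level, chosen likewise, Bmp4 was 0.18, Amhr2 0.25 and Gdf9 0.13. All 6 smooth muscle and all 7 stromal markers had negative log2 fold changes, so these terms and genotype are only partly separated in such fits. The causes were not tested.

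Msx2 was no longer called with library size alone (adjusted p-value 0.123), with at least 10 counts in every library (0.117), with the replicate block (0.124) or with the smooth muscle term (0.465). DESeq2 called Ccn2 (adjusted p-value 0.00842), Acvr1c (0.0486) and Gdf6 (0.0630), which edgeR did not, and 3.64% of the genes it tested. The labels do not say that a shared replicate number marks a pair. The deviations of same-numbered libraries had correlations of 0.27, -0.44, 0.34 and -0.16, and 1 of 4 numbers matched best with itself. These correlations cannot show whether such libraries were handled together, since each also carries the makeup of its capture. With the replicate block 82 genes were called (75 higher, 7 lower), none of the 10 among them, and Bmp2 was -0.055.

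The main number of calls was 180 (168 higher, 12 lower). It was 793 (567 and 226) by DESeq2, 311 (253 and 58) by limma voom with sample quality weights, 81 (74 and 7) with at least 10 counts in every library, 411 (306 and 105) with the stromal term and 47 (43 and 4) with the smooth muscle term. It was 119 at an adjusted p-value of 0.05, with 4 lower, and 1775 (917 and 858) at an unadjusted p-value under 0.05, and 20 genes were lower on log2 TPM with a pseudocount of 0.1. Leave-one-out fits called 81 to 167 genes, 79 to 157 higher and 2 to 15 lower. WT shares of summed TGF-β ligand TPM moved to 44.5% for Tgfb1 and 45.7% for Tgfb3 with CPM per transcript length. Depth limits Grem1, at or under 3 counts in 4 of 8 libraries, and Gdf6, at or under 3 counts in Thra1PV/+ libraries 1 and 2.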
